A study of Mus musculus with 6 samples.

Results

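Complement is a cascade of plasma and tissue proteins that marks surfaces for uptake and releases small inflammatory peptides. The classical route starts when C1q binds a target, the alternative route is amplified by factor B, and both cleave C3 and C5, whose fragments C3a and C5a act on leukocyte receptors. In the joint lining, macrophages are the textbook source of C1q and carriers of the receptors, while synovial fibroblasts also make several soluble components and regulators.

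Of 9 genes of this cascade listed by symbol, 8 had a probe set under a single symbol in the platform annotation: C1qa, C1qb, C1qc, C2, Cfb, Serping1, C3ar1 and C5ar1, out of 22180 genes. C3 was not analysed here. Each of the 8 had 1 probe set, so no choice between probe sets was made, and no filter on level removed any of them.

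The 8 genes were followed in fibroblast-like synoviocytes of C57BL6 knee synovium, cultured to between passages 4 and 8. All 6 arrays came from infected cells: virus was added for 2 h, at a multiplicity of 800, and the cells were then kept for 24 h. In the 3 Mock samples the virus was empty, and in the 3 Ad-Epas1 samples it carried Epas1, which encodes the oxygen-regulated transcription factor HIF-2alpha. The comparison asks how transcripts differ once Epas1 is delivered. The age and sex of the mice, and whether replicates came from separate mice or cultures, are not stated. The p-values therefore reflect only how far these samples spread, which may be technical. An exact permutation of 3 against 3 arrays cannot go below p = 0.1, so the tests come from limma fitted over all genes. The number of arrays limits the precision.

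Epas1 stood at 8.67, 8.71 and 8.51 on the Mock arrays and at 13.14, 13.15 and 13.11 on the Ad-Epas1 arrays (log2), so the delivered gene matched the labels. Over all genes 3620 passed at an adjusted p under 0.05, 1458 higher and 2162 lower in Ad-Epas1. After a second quantile normalization that split was 1913 higher and 1731 lower. Leaving out Mock replicate 2 or 3 left 1187 or 1181 called genes, and leaving out Ad-Epas1 replicate 1 or 2 left 2186 or 1512. A single array stood apart. On Ad-Epas1 replicate 3, 17 of 20 macrophage markers lay over 2-fold below their Mock mean, with a median of -3.55 over the 20 markers, where Ad-Epas1 replicates 1 and 2 had medians of 0.08 and -0.02. The summed level of the 20 markers was 15.60, 15.33 and 15.34 on the Mock arrays, 15.68 and 15.49 on Ad-Epas1 replicates 1 and 2, and 11.95 on Ad-Epas1 replicate 3 (log2 of the linear sum). The summed level of 15 fibroblast markers ranged from 16.03 to 16.23 over the 6 arrays, while single markers differed between the groups, as given with the other marker lists. The labels give the cultures as over 90% positive for CD90 and under 1% positive for CD14 by flow cytometry. Thy1, which encodes CD90, stood between 11.06 and 11.17 in Mock and between 10.40 and 10.98 in Ad-Epas1, and Cd14 between 9.99 and 10.42 in Mock. For scale, 1394 olfactory and vomeronasal receptor genes, not expected in these cells, had a 95th percentile of 6.62, called the receptor reference here. Because whole cultures were measured, fewer cells of a type and less RNA per cell cannot be told apart. Differences of the complement genes named are given with and without Ad-Epas1 replicate 3.

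Transcripts of C1q, the recognition molecule of the classical pathway, were lower in Ad-Epas1 for each of its 3 chains, on each of the 3 arrays. C1qa and C1qc fell over all 6 arrays, with log2 differences of -2.05 and -2.31. C1qb had the largest mean difference (-2.46) but did not pass, since its Ad-Epas1 arrays lay far apart. With Ad-Epas1 replicate 3 left out all 3 fell, C1qa 3.15-fold, C1qc 2.86-fold and C1qb 1.93-fold. Of the 8 genes, 2 fell, 0 rose and 6 did not pass over all arrays, where limma called 16.3% of all genes, 9.75% lower and 6.57% higher. In the fit without Ad-Epas1 replicate 3, 3 fell, 1 rose and 4 did not pass, where it called 24.3% of all genes, 14.0% lower and 10.3% higher. At an unadjusted p under 0.05 in limma, 0 of the 8 were higher and 2 lower over all arrays, beside 16.3% and 16.2% of all genes. Without Ad-Epas1 replicate 3, 1 was higher and 5 lower at that p, beside 17.6% and 19.1% of all genes.

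C1qa encodes the A chain of C1q. It stood at 11.01, 10.67 and 10.79 on Mock replicates 1, 2 and 3 and at 9.19, 9.15 and 8.00 on Ad-Epas1 replicates 1, 2 and 3. The highest Ad-Epas1 array lay below the lowest Mock array, and Ad-Epas1 replicates 1 and 2 were almost equal. The means were 10.82 ± 0.17 in Mock and 8.78 ± 0.68 in Ad-Epas1 (SD, n = 3 each), a log2 difference of -2.05 (SE 0.32, 95% interval -2.80 to -1.29, limma adjusted p = 0.0089). The call was kept whichever single array was left out (adjusted p up to 0.045). The difference without Ad-Epas1 replicate 3 was -1.65 (SE 0.11, interval -1.92 to -1.39, limma adjusted p = 0.00034).

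C1qb, the B chain gene, stood at 12.67, 12.56 and 12.61 in Mock and at 11.63, 11.70 and 7.12 in Ad-Epas1. Its Mock arrays were close together, and the groups did not overlap. Ad-Epas1 replicates 1 and 2 lay at -0.98 and -0.91 from the Mock mean, and Ad-Epas1 replicate 3 at -5.49, a 44.9-fold difference on 1 array. The means were 12.61 ± 0.05 and 10.15 ± 2.62 (SD, n = 3 each). The difference of -2.46 (SE 1.17, interval -5.25 to 0.33) had a limma adjusted p of 0.197. With Ad-Epas1 replicate 3 left out it was -0.95 (SE 0.07, interval -1.12 to -0.77, adjusted p = 0.00051).

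C1qc, the C chain gene, stood at 10.46, 10.40 and 10.21 in Mock and at 8.76, 8.92 and 6.46 in Ad-Epas1. All Ad-Epas1 arrays were below all Mock arrays, and on Ad-Epas1 replicate 3 the level lay under the 6.62 of the receptor reference, so the size of that fall is not exact. The means were 10.36 ± 0.13 and 8.05 ± 1.38 (SD, n = 3 each), a difference of -2.31 (SE 0.62, interval -3.78 to -0.83, limma adjusted p = 0.049). This call rested on the full set: without Mock replicate 1, 2 or 3 or Ad-Epas1 replicate 1 or 2 the adjusted p was 0.12, 0.14, 0.14, 0.063 and 0.064. When Ad-Epas1 replicate 3 was the one left out, the difference was -1.51 (SE 0.10, interval -1.76 to -1.27, adjusted p = 0.00036).

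**Figure D1:**
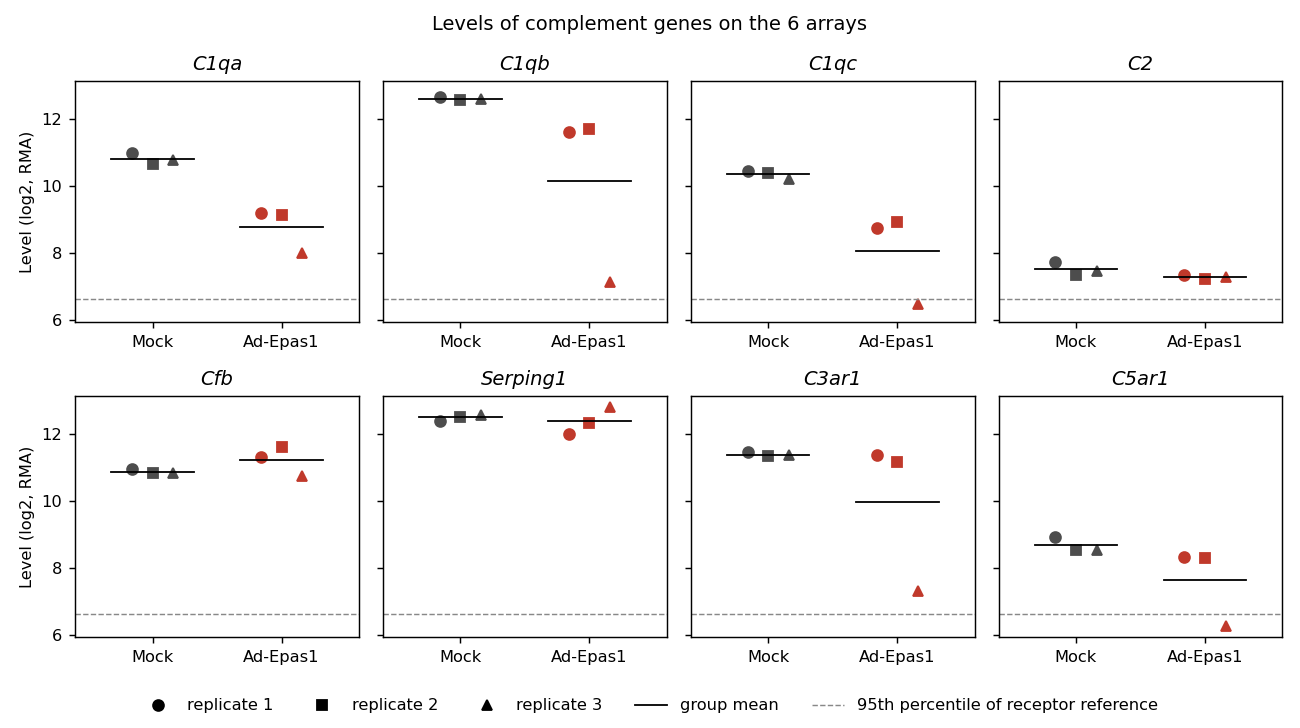
Level of each complement gene (log2, RMA) on the 3 Mock (grey) and 3 Ad-Epas1 (red) arrays, with symbols for the replicate number, a line at each group mean and a dashed line at 6.62, the receptor reference. The 3 C1q genes were lower on every Ad-Epas1 array, while C3ar1 was low on Ad-Epas1 replicate 3 (7.32) and near Mock on replicates 1 and 2.

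In the RefSeq gene table of GRCm38.p6 the C1q genes are neighbours on chromosome 4, with 0 other protein-coding genes between C1qa and C1qc or between C1qc and C1qb. The RefSeq windows from 250 bases before to 50 after the start were available for C1qb and C1qc and are printed because these neighbours were lower together. Motifs of 2 kinds were searched on both strands: the core GGAAGT, found in sites of the myeloid and lymphoid factor PU.1, and the hypoxia response cores ACGTG and GCGTG, through which HIF proteins bind. Capitals mark the first, which reads ACTTCC where it lies on the other strand. The first base of the C1qb match is 53 bases before the start (chr4:136886151-136886450, minus strand, GRCm38.p6), and that of C1qc 195 bases before it (chr4:136892865-136893164, minus strand).
C1qb: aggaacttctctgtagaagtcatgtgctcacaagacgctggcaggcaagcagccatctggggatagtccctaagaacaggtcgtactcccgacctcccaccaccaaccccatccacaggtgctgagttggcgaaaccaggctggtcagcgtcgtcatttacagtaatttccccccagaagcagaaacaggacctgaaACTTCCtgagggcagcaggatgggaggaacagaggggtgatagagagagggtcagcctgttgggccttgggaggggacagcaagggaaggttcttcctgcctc
C1qc: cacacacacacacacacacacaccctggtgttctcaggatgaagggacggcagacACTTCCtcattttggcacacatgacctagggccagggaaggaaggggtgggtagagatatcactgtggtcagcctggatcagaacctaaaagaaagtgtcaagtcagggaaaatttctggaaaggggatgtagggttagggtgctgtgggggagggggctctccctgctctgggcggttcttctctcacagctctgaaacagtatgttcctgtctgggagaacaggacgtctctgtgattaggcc
No match to either hypoxia core is in these letters. Of 32851 RefSeq windows of the same length, 23.8% hold GGAAGT and 43.8% hold a hypoxia core on either strand. A match is a description of letters and not of binding.

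C2 encodes the protease of the classical C3 convertase and Cfb encodes factor B, its counterpart in the alternative convertase. The genes lie side by side on chromosome 17 in the RefSeq table, with 0 protein-coding genes between them. Neither passed over all 6 arrays, and Cfb rose without Ad-Epas1 replicate 3.

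C2 stood at 7.74, 7.34 and 7.45 in Mock and at 7.34, 7.23 and 7.27 in Ad-Epas1, so the Ad-Epas1 arrays reached up to the lowest Mock array. The means were 7.51 ± 0.21 and 7.28 ± 0.06 (SD, n = 3 each). The difference of -0.23 (interval -0.49 to 0.04, limma adjusted p = 0.21) did not pass, nor did that without Ad-Epas1 replicate 3 (-0.22, interval -0.53 to 0.09, adjusted p = 0.27).

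Cfb stood at 10.95, 10.85 and 10.85 in Mock and at 11.30, 11.61 and 10.76 in Ad-Epas1. Ad-Epas1 replicates 1 and 2 lay above all Mock arrays, and Ad-Epas1 replicate 3 lay just below them. The means were 10.88 ± 0.06 and 11.22 ± 0.43 (SD, n = 3 each), a difference of 0.34 (SE 0.20, interval -0.14 to 0.82, limma adjusted p = 0.29). Cfb rose 1.49-fold without Ad-Epas1 replicate 3 (0.57, SE 0.11, interval 0.32 to 0.83, adjusted p = 0.010). It was the 1 gene of the 8 that rose in that fit.

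Serping1 encodes C1 inhibitor, the serpin that inactivates the C1 proteases. It stood at 12.40, 12.52 and 12.57 in Mock and at 12.02, 12.35 and 12.82 in Ad-Epas1. Ad-Epas1 replicate 3 was the highest of the 6 arrays and Ad-Epas1 replicate 1 the lowest. The means were 12.50 ± 0.09 and 12.39 ± 0.40 (SD, n = 3 each), with a difference of -0.11 (interval -0.57 to 0.35, limma adjusted p = 0.73). It was -0.32 without Ad-Epas1 replicate 3 (interval -0.60 to -0.04, adjusted p = 0.098), and without Ad-Epas1 replicate 1 it was 0.08.

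The receptors of the C3a and C5a peptides, both coupled to G proteins, did not pass in either fit. C3ar1 stood at 11.47, 11.33 and 11.37 in Mock and at 11.38, 11.18 and 7.32 in Ad-Epas1. Ad-Epas1 replicate 1 lay within the Mock range, Ad-Epas1 replicate 2 at -0.21 from the Mock mean and Ad-Epas1 replicate 3 at -4.07, which is 16.8-fold lower. The means were 11.39 ± 0.07 and 9.96 ± 2.29 (SD, n = 3 each), a difference of -1.43 (interval -3.87 to 1.00, limma adjusted p = 0.37). The difference was -0.11 without Ad-Epas1 replicate 3, with an interval from -0.33 to 0.10 (adjusted p = 0.42). The C1q differences of that fit, the smallest being -0.95, were larger in size, and whether they differ from that of C3ar1 was not tested.

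C5ar1 stood at 8.93, 8.55 and 8.55 in Mock and at 8.33, 8.29 and 6.25 in Ad-Epas1. The groups did not overlap, as for the C1q genes. Ad-Epas1 replicates 1 and 2 were at -0.34 and -0.38 from the Mock mean, and Ad-Epas1 replicate 3 was at -2.42, under the receptor reference of 6.62. The means were 8.67 ± 0.22 and 7.63 ± 1.19 (SD, n = 3 each), a difference of -1.05 (interval -2.34 to 0.24, limma adjusted p = 0.23), against -0.36 (interval -0.67 to -0.05, adjusted p = 0.093) without Ad-Epas1 replicate 3. In all, 4 of the 8 genes (the C1q chains and C5ar1) were lower in Ad-Epas1 with no overlap, which held for 18.4% of all genes.

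The windows around the starts of both receptor genes are printed to set them beside the C1q windows, with the same capitals. C5ar1 (chr7:16259289-16259588, minus strand, GRCm38.p6) has GGAAGT on the other strand at 190 and 72 bases before the start, and C3ar1 (chr6:122856108-122856407, minus strand) has no match. Neither window holds a hypoxia core. No window was available for C1qa, C2, Cfb and Serping1. The window of C3, the listed gene not analysed on the arrays, holds no match to either kind of motif and is not printed.
C5ar1: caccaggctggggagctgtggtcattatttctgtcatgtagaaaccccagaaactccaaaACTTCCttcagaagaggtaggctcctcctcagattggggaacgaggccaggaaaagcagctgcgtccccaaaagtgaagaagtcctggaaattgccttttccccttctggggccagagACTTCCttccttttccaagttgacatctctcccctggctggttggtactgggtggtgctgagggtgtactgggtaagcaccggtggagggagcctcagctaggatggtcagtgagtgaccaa
C3ar1: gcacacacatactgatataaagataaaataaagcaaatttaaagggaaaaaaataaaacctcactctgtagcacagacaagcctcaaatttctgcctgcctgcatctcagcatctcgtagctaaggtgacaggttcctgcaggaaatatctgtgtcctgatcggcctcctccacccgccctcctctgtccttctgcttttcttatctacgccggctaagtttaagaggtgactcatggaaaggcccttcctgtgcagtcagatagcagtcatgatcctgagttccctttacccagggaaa

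**Figure D2:**
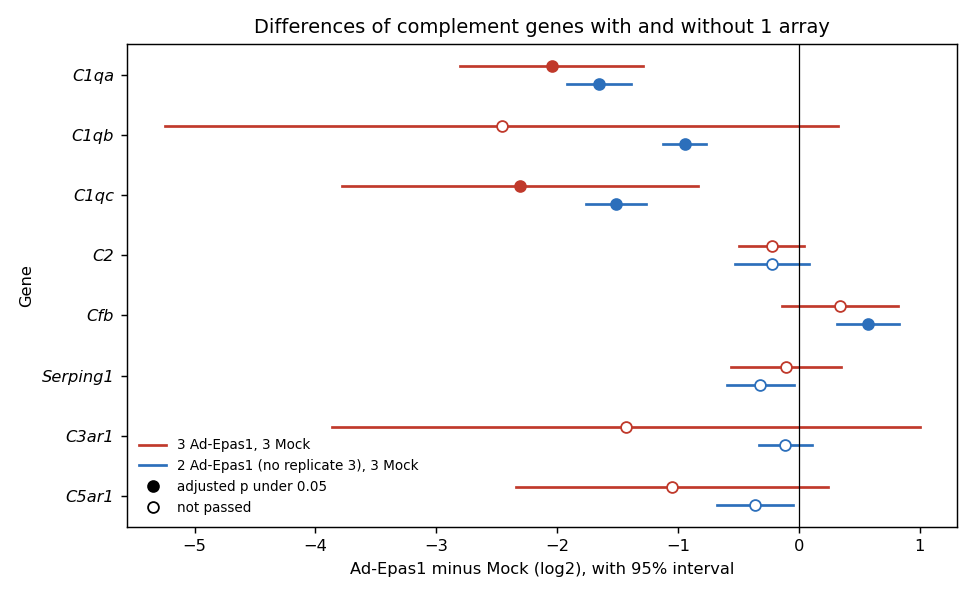
Ad-Epas1 minus Mock (log2) with its 95% interval for each complement gene, over all 6 arrays (red) and without Ad-Epas1 replicate 3 (blue), with filled points where the limma adjusted p was under 0.05. Leaving out that array narrowed the interval of C1qb from -5.25 to 0.33 down to -1.12 to -0.77, and Cfb passed at 0.57.

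The 8 genes fell into sets that differed on Ad-Epas1 replicate 3. On that array C1qa, C1qb, C1qc, C3ar1 and C5ar1 lay over 4-fold below the Mock mean, which held for 1.02% of all genes there. These 5 were also its only members over 2-fold lower, beside 3.19% of all genes. On Ad-Epas1 replicates 1 and 2 C1qa and C1qc lay over 2-fold below the Mock mean, beside 3.06% and 2.64% of all genes. None of the 8 lay over 4-fold lower on those arrays, beside 0.555% and 0.46% of all genes. C2, Cfb and Serping1 lay at -0.24, -0.12 and 0.32 on Ad-Epas1 replicate 3. The 5 genes that were low there are textbook macrophage transcripts, and their part in the low macrophage markers of that array was not tested.

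Macrophage markers are given beside these values. On Ad-Epas1 replicates 1 and 2 the 20 markers ranged from -2.35 to 1.74 and from -2.38 to 1.23 around their Mock means. Csf1r, the receptor of macrophage growth factor, lay at -0.10 and -0.36, Cd68, a lysosomal glycoprotein, at -0.05 and -0.11, and Adgre1, a macrophage surface receptor, at 0.76 and 0.45. On Ad-Epas1 replicate 3 they lay at -3.40, -1.96 and -6.00, and Cd14 at -1.56. In the fit without it, differences of -0.95 to -1.65 for the C1q genes stood beside a median difference of 0.03 over the 20 markers. In that fit 4 of the 20 markers rose, 3 fell and 13 did not pass, and over all 6 arrays 0 rose (0 also at an unadjusted p under 0.05), 3 fell and 17 did not pass. Of all genes 10.3% rose and 14.0% fell in that fit, and 6.57% rose and 9.75% fell over all 6 arrays. These shares also stand beside the counts of the other marker lists. The 3 macrophage markers that fell were Mrc1, Cx3cr1 and Aif1 in both fits. Mrc1, the mannose receptor gene, differed by -2.36 without Ad-Epas1 replicate 3 (limma adjusted p = 0.0022) and Cx3cr1, the fractalkine receptor gene, by -1.12 (adjusted p = 0.0011). Cd14, the lipopolysaccharide co-receptor gene, rose by 1.48 in that fit (adjusted p = 0.0025). Mrc1, Cx3cr1 and Aif1 were named after their values were seen. Whether C1q differs from the markers or the receptors in its response was not tested. Of the other marker lists, 0 of 7 lymphocyte and 0 of 5 mast cell genes passed in limma in either fit (0 also at an unadjusted p under 0.05), and their medians lay within 0.13 of the Mock mean on each Ad-Epas1 array. Among 8 neutrophil markers 1 rose over all arrays (Camp, 1 also at an unadjusted p under 0.05) and 2 without Ad-Epas1 replicate 3 (Camp, S100a8). Of 8 endothelial markers 0 rose over all arrays and 4 without Ad-Epas1 replicate 3 (Pecam1, Tek, Vwf and Esam). Over all arrays those 4 were higher at an unadjusted p under 0.05, beside 16.3% of all genes. Mock means were 6.98 and 5.56 for Camp and S100a8, and 6.47, 5.65, 6.67 and 6.68 for the 4 endothelial genes. These means lay near or below the receptor reference of 6.62. Of the 15 fibroblast markers, 2 rose (Prg4 and Pdpn), 3 fell (Pdgfrb, Col3a1 and Cdh11) and 10 did not pass over all arrays, with a median difference of -0.12. Without Ad-Epas1 replicate 3, 2 rose, 6 fell and 7 did not pass, with a median of -0.28. In that fit Pdgfrb, a growth factor receptor gene, differed by -1.36, Cdh11, the gene of a synovial fibroblast cadherin, by -1.43 and Col3a1, a collagen gene, by -1.13 (limma adjusted p = 0.00044, 0.0027 and 0.00099). These 5 fibroblast markers, and the neutrophil and endothelial genes, were named after their values were seen. The part of these differences in those of the complement genes was not tested.

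**Figure D3:**
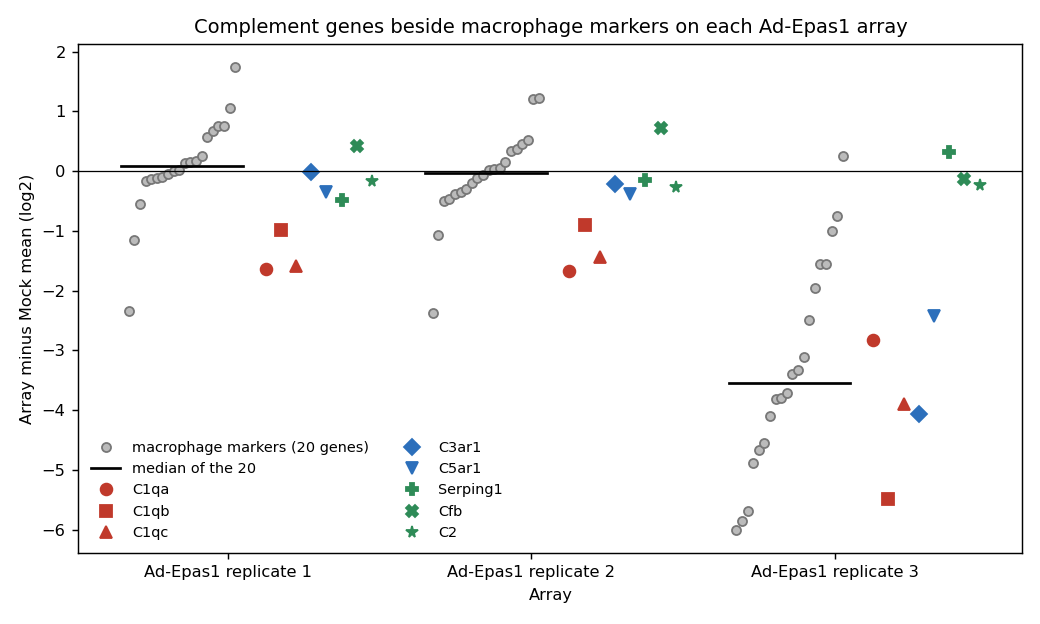
Each Ad-Epas1 array minus the Mock mean (log2) for the 20 macrophage markers (grey circles, sorted, with a line at their median) and for the 8 complement genes (coloured symbols). On replicates 1 and 2 the marker medians are 0.08 and -0.02 while the C1q genes lie between -1.67 and -0.91. Single markers there range from -2.35 to 1.74 and from -2.38 to 1.23, so the lowest lie below the C1q genes. On replicate 3 the markers' median is -3.55 and 5 complement genes lie low with them.

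Likeness of pattern was described by the root mean square difference (log2) between profiles over the 6 arrays, each centred on its own mean. Among the 8 genes the closest pair was C2 and Serping1 (0.31), and then C2 and Cfb (0.39) and C1qa and C1qc (0.44). On Ad-Epas1 replicate 3, C2 lay at -0.24 from its Mock mean and Serping1 at 0.32, so these profiles were not alike there. C1qb was nearer to C3ar1 (0.55) than to C1qa (1.14), since Ad-Epas1 replicate 3 dominates both profiles. Over all genes with settled names, the closest to C1qa were Gpr65, Lair1 and Fat3 (0.18, 0.19 and 0.20). Those closest to C1qb were Pld4, Cd180 and Folr2 (0.19, 0.23 and 0.24), and to C1qc Rgs18, Clec5a and Trem2 (0.19, 0.21 and 0.26). C3ar1 was closest to Tlr13, Ptprc and Laptm5 (0.11, 0.12 and 0.15), of which Ptprc and Laptm5 are among the macrophage markers above. C5ar1 was closest to Lpcat2, Ncf1 and Dck (0.070, 0.087 and 0.10). Cfb was closest to Pkp2, Gjb2 and Asb4 (0.064, 0.086 and 0.086), Serping1 to Pcdhb17, Rab23 and Auts2 (0.034, 0.046 and 0.049), and C2 to Slc22a28, Olfr920 and Eif4e3 (0.031, 0.032 and 0.035). The measure is not scaled to the spread of a gene, so genes that vary little lie close to many others. Its sizes therefore do not compare the tightness of a match between members. Olfr920 is an olfactory receptor gene, a class not expected in these cells.

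Of 47 other complement genes listed, 44 were measured, and the rest were not analysed here. Over all 6 arrays 2 fell, 0 rose and 42 did not pass, with a median difference of -0.04, beside 0.05 over all genes. With Ad-Epas1 replicate 3 left out, 7 fell, 0 rose and 37 did not pass, with a median of -0.05, beside 0.03 over all genes. The share that fell, 2 of 44 and 7 of 44, stands beside 9.75% and 14.0% of all genes. At an unadjusted p under 0.05 in limma, 3 of the 44 were higher and 8 lower over all arrays, beside 16.3% and 16.2% of all genes. In the smaller fit 3 were higher and 13 lower, beside 17.6% and 19.1% of all genes.

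The 2 that fell over all arrays were Masp1 and C4b. Masp1, a protease of the lectin pathway, stood at 10.05, 9.48 and 9.45 in Mock and at 8.65, 8.71 and 8.99 in Ad-Epas1, with no overlap. It differed by -0.88 (SE 0.18, limma adjusted p = 0.021), and missed the threshold with any of Mock replicates 2 and 3 and Ad-Epas1 replicates 1 and 2 left out (up to 0.082). Without Ad-Epas1 replicate 3 the difference was -0.98 (limma adjusted p = 0.011). C4b, which supplies the other subunit of the classical convertase, stood at 9.75, 9.91 and 9.91 in Mock and at 9.21, 9.52 and 8.82 in Ad-Epas1, again with no overlap. It differed by -0.67 (SE 0.17, limma adjusted p = 0.043), and did not pass with any Mock replicate or Ad-Epas1 replicate 1 left out (up to 0.14). Without Ad-Epas1 replicate 3 the difference was -0.49 (limma adjusted p = 0.023). C4b and C4a are near-identical copies whose probes may share signal, so the C4b value is uncertain. The same holds for C1ra and C1rb, and for C1s1 and C1s2. C4a, named after its values were seen, stood at 5.24, 4.85 and 4.99 in Mock and at 5.49, 5.16 and 5.53 in Ad-Epas1. These levels lay below the receptor reference. It differed by 0.37 (limma adjusted p = 0.12), the other way from C4b, and by 0.30 without Ad-Epas1 replicate 3 (adjusted p = 0.19).

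Of the genes for the proteases that C1q activates, C1ra, C1rb, C1s1 and C1s2, none passed in limma over all arrays or without Ad-Epas1 replicate 3. At an unadjusted p under 0.05 only C1s2 was lower over all arrays, and only C1s1 and C1s2 without that array. C1ra stood at 8.33, 8.32 and 8.28 in Mock and at 7.83, 8.25 and 8.68 in Ad-Epas1 (difference -0.06, interval -0.53 to 0.41, limma adjusted p = 0.86). Without Ad-Epas1 replicate 3 the difference was -0.27 (adjusted p = 0.17). C1rb differed by 0.06 and, without that array, by -0.15 (adjusted p = 0.87 and 0.54). C1s1 stood at 6.09, 6.17 and 6.30 and at 5.37, 5.95 and 6.47 (difference -0.25, interval -0.86 to 0.36, adjusted p = 0.53), below the receptor reference, and its second probe set gave -0.41 (adjusted p = 0.46). Without Ad-Epas1 replicate 3 the difference was -0.52 (interval -0.93 to -0.12, adjusted p = 0.070). In C1ra and C1s1, as in Serping1, Ad-Epas1 replicate 3 was the highest of the 6 arrays and Ad-Epas1 replicate 1 the lowest. C1s2 stood at 4.22, 4.01 and 4.12 in Mock and at 3.91, 3.74 and 3.73 in Ad-Epas1, far below the receptor reference, with no overlap and with Ad-Epas1 replicate 3 the lowest array. It differed by -0.32 (interval -0.53 to -0.11, limma adjusted p = 0.051) and by -0.29 without Ad-Epas1 replicate 3 (adjusted p = 0.074). C1rb and C1s2 were named after their values were seen. Hc, which encodes C5, stood between 5.10 and 5.51 on all 6 arrays, in the range of the receptor reference, and differed by 0.18 (interval -0.13 to 0.48, adjusted p = 0.38), or 0.13 without Ad-Epas1 replicate 3 (adjusted p = 0.56).

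Another 4 genes of the list differed by 2-fold or more in their means without passing. C4bp, which encodes the alpha chain of C4b-binding protein, stood at 9.22, 10.32 and 10.32 in Mock and at 7.66, 8.82 and 9.70 in Ad-Epas1 (difference -1.23, limma adjusted p = 0.17). Its Mock replicate 1 was low, and Ad-Epas1 replicate 3 lay above it. It fell by 1.72 without Ad-Epas1 replicate 3 (SE 0.44, limma adjusted p = 0.033). The other 3 were low on Ad-Epas1 replicate 3. Cfp, which encodes properdin, the stabiliser of the alternative convertase, stood at 11.29, 10.36 and 10.57 in Mock and at 11.06, 10.39 and 7.69 in Ad-Epas1. Itgam and Itgb2, the chains of complement receptor 3, stood at 6.10 and 7.26 on that array, against means of 10.95 and 11.08 in Mock. Their differences were -1.02, -1.39 and -1.08 over all arrays, and -0.01, 0.33 and 0.29 without Ad-Epas1 replicate 3, none of which passed (limma adjusted p from 0.26 to 0.98 over both fits).

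**Figure D4:**
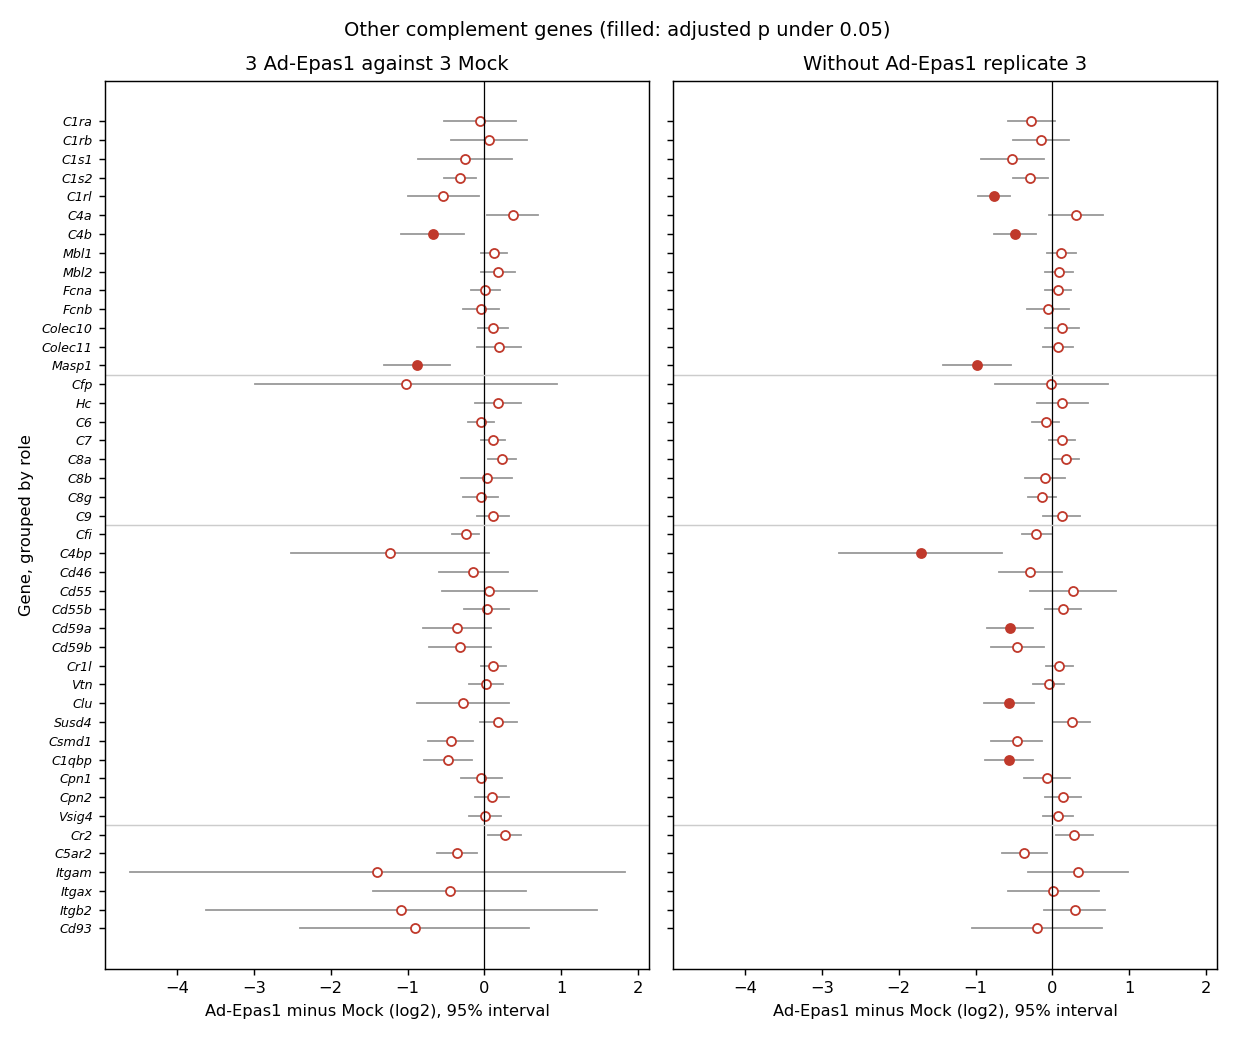
Ad-Epas1 minus Mock (log2) with 95% intervals for 44 other complement genes over all 6 arrays (left) and without Ad-Epas1 replicate 3 (right), in blocks from top to bottom for recognition and proteases, the alternative and terminal pathway, regulators, and receptors. Filled points passed, 2 on the left and 7 on the right, all below 0.

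The 7 genes that fell without Ad-Epas1 replicate 3 were C4b, Masp1, C4bp, C1rl, Cd59a, Clu and C1qbp. The last 4, named after their values were seen, differed by -0.77, -0.55, -0.56 and -0.56 (limma adjusted p = 0.0017, 0.022, 0.026 and 0.023). C1rl is a relative of the C1r protease gene, and Cd59a and Clu encode inhibitors of the membrane attack complex. On Ad-Epas1 replicate 3 C1rl, Cd59a and Clu lay at -0.07, 0.03 and 0.30 from the Mock mean, so their low values were those of replicates 1 and 2. Of 8 genes of the alternative and terminal pathway, 0 passed in limma in either fit, and 1 was higher in each at an unadjusted p under 0.05.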

How the data were processed

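Each of the 6 arrays was a whole-transcript Affymetrix array labelled from 300 ng of total RNA. The authors deposited log2 values, made with RMA by Affymetrix Expression Console (version 1.3.1, according to the submitters' processing notes). A genome build for the probe sets is not stated in the sources at hand. RMA's quantile step hides a change common to most genes, and its probe summary compresses large differences.

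Of 41345 probe sets, 23521 had 1 gene symbol, 1814 had several and 16010 had none. The probe set with the highest mean represented a gene with several (1082 genes), which left 22180 genes, and 0 symbols changed against the RefSeq table of GRCm38.p6. The columns of other samples numbered 0. Samples were grouped by title. Tests of Ad-Epas1 minus Mock used limma 3.58.1 in R 4.3.3 (lmFit, eBayes, two-sided), Benjamini-Hochberg adjusted over all 22180 genes at a threshold of 0.05, without a replicate block, and the code was tested on simulated data. SE is limma's moderated standard error.

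The members, the gene lists and the tests were chosen with earlier results of these data known. Named genes are the 8 members, other complement genes that passed or differed 2-fold, C1ra, C1s1, C4b and Hc, the 3 closest profiles per member, and set markers; a further named gene is not reported here. Alternatives were a replicate block, each array left out, 2 arrays left out, a second quantile step, median centring, a level filter, another prior, array weights and 2 treatments of probe sets.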

Additional observations from a re-analysis of the deposited data

How the results depend on the processing

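The 8 members kept their direction under every alternative except Serping1, which was 0.082 without Ad-Epas1 replicate 1 (range with 1 array left out -0.32 to 0.082). The replicate block, the level filter, the other prior and the treatments of probe sets could not change a direction. They leave the difference of a gene with 1 probe set as it is. The treatments of probe sets also nearly repeat the main fit for these genes. Of 120 values, all of these included, 107 also kept their side of the threshold. C1qa passed under all alternatives. The members called, 2 over all arrays, numbered 1 to 4 with 1 array left out, 4 with Mock replicate 1 and Ad-Epas1 replicate 3 both left out, 1 after a second quantile normalization (C1qc adjusted p = 0.056) and 1 with a trended, robust prior (C1qc adjusted p = 0.10). With array weights Cfb rose (0.61, adjusted p = 0.011). The other complement genes called, 2 over all arrays, numbered 0 to 7 with 1 array left out, and 9, 5, 4 and 12 with both arrays left out, the second quantile step, the trended prior and array weights. The genes called in all, 3620, numbered 1181 to 5390 with 1 array left out, 6000 with both left out and 7791 with array weights. Correlations of deviations from the group means were 0.34, -0.19 and 0.21 for replicate numbers 1, 2 and 3. The value for number 1 was the highest of all pairs, and Mock replicate 2 with Ad-Epas1 replicate 3 gave 0.27. With 3 arrays per group these values depend on each other. They cannot decide whether a replicate number marks samples that belong together. With the replicate block 2 members and 2 other complement genes passed, and C4b missed (-0.67, adjusted p = 0.051) while C4bp passed (adjusted p = 0.024). Signs reversed without a call for Cfp (0.26), Itgam (0.58) and Itgb2 (0.42) with both arrays left out, for Itgam (0.33), Itgb2 (0.29) and Adgre1 (0.61) without Ad-Epas1 replicate 3, for C1ra (0.15), C1s1 (0.026) and Cd14 (-0.17) without Ad-Epas1 replicate 1, for C1ra after the second quantile step (0.079) and for Adgre1 with array weights (0.083). Adgre1 rose with both arrays left out (0.82, adjusted p = 0.0048). With 1 array left out the ranges reached down to -2.40 (Itgam), -1.86 (Itgb2), -0.27 (C1ra), -0.52 (C1s1) and -2.78 (Adgre1), and up to 1.48 for Cd14. The cause was not tested. Levels near the receptor reference limit the sizes on Ad-Epas1 replicate 3.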
